A study of Mus musculus with 17 samples.

Results

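The 10 genes described here, Dbp, Tef, Hlf, Nr1d1, Nr1d2, Per1, Per2, Per3, Ciart and Bhlhe41, are output genes and repressors of the circadian clock. They were found by their symbols among the 35285 genes of the expression table, and each matched 1 row. Dbp and Tef were chosen by the study on these same libraries for their difference between the brimonidine and NE groups, and the other 8 were set beside them as genes of the same arm of the clock, with results of these data known. The paper also reports a qPCR check of its differing genes, with primers listed for Dbp and Tef, which is not used here. RNA was sequenced from the cochleae of 17 male C57BL/6J mice, wild type and 8 weeks old when obtained, 1 mouse per library. The control group (3 libraries) received saline intraperitoneally and no noise. The noise exposure (NE) group (7 libraries) had 2 h of noise in a band of 8 to 16 kHz and at 100 dB SPL, and no injection is stated for it. In the brimonidine group (7 libraries), mice had the same exposure together with 3 intraperitoneal injections of brimonidine, an agonist of α2-adrenergic receptors, at 1 mg/kg, given on the day before the noise, before it on the day itself, and on the day after. All groups had hearing tests under ketamine and xylazine on the second day after exposure and were killed afterwards. The mice lived under a fixed cycle of light and dark, but the clock time at which each cochlea was taken is not given in the sources used here, and its part in the results below was not tested.

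The clock runs on a feedback loop in almost every cell. The activators CLOCK and BMAL1 bind E-box elements and switch on genes whose products close the loop. PER proteins, together with CRY proteins, block the activators, and CIART and BHLHE41 are further repressors of the same step. NR1D1 and NR1D2 (the REV-ERB nuclear receptors) repress Bmal1 through elements shared with the receptor RORA. DBP, TEF and HLF form the PAR bZIP family of transcription factors, which act on D-box elements and carry the rhythm to other genes. The cochlea has a clock of its own, and the genes of this arm peak at similar times of day, out of phase with Bmal1.

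The letters near the start sites show where these elements lie. Promoter windows of RefSeq on GRCm38.p6, 250 bases before to 50 after a start, were at hand for 9 of the 10 genes as 11 windows, with 2 each for Per1 and Tef, and none was used for Per2. Searched on both strands, the E-box CACGTG was held by 5 of the 11 windows, against 7.15% of all 32851 windows. These 5 windows belong to Ciart, Bhlhe41, Per1 and both starts of Tef. The related E-prime box CACGTT was found in Nr1d1 alone among the members (4.68% of all windows). The D-box, TTATGTAA or TTACGTAA, was found in Per3 alone (1.06%), and the cAMP response element TGACGTCA in Hlf alone (1.79%). CACGTG, TTACGTAA and TGACGTCA read the same on both strands and were counted once per position, and no matches overlapped within the members' windows. These matches describe letters in a window and show no binding.

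The sequences of 4 windows are printed in the direction of transcription, with motif matches in capitals. Dbp and Tef are shown because the study singled them out, Ciart because 3 E-boxes lie in its window, a number reached by 0.0883% of all windows, and Per3 because it holds 2 D-boxes (0.0244%).
Dbp, chr7:45704997-45705296, + strand: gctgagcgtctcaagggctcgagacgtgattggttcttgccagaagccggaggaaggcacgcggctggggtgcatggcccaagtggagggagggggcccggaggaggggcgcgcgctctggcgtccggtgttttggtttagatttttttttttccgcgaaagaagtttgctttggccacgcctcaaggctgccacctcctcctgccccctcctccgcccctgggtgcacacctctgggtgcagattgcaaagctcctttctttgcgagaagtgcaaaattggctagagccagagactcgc
Tef, chr15:81802423-81802722, + strand: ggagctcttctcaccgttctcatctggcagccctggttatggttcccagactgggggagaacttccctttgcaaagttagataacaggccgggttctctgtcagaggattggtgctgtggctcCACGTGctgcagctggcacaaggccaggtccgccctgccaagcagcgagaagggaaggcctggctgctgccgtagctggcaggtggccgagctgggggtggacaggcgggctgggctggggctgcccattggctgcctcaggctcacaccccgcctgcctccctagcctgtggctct
Ciart, chr3:95882179-95882478, − strand: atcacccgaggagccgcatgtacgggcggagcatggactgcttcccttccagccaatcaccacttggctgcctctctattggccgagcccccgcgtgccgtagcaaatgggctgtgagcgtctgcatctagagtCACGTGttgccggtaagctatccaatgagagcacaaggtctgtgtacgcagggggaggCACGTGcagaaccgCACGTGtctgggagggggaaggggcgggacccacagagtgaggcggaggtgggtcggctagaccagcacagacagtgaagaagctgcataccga
Per3, chr4:151044616-151044915, − strand: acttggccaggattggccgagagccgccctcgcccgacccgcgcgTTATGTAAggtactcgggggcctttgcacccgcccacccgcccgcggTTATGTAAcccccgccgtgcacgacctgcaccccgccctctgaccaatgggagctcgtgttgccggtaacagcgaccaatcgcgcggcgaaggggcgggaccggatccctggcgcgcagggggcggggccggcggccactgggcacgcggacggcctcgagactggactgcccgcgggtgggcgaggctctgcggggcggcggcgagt
In this window Dbp held none of the motifs searched. The Tef E-box began 127 bases before the start, and that of the other Tef start 138 bases before it. Those of Ciart began 116, 58 and 44 bases before the start. The D-boxes of Per3 began 205 and 158 bases before the start.

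Expression is given as FPKM, the fragments counted on a gene relative to the length of its exons and to all fragments counted in the library. Depth ran from 14457712 to 18288825 fragments per library, and the members rested on between 48 (Ciart) and 3035 (Tef) fragments in a library. For Tef alone of the members, the fragments rest on a length solved from its values, because the annotated length did not give whole numbers. Control 2 stood apart from the other libraries. Its median correlation with them across genes was 0.831, against 0.947 to 0.981 for the other 16, and it was the highest of the 3 controls for 9 of the 10 members and the lowest for Dbp. Markers of cerebellar and other central neurons and glia (10 of 10 found) summed to 211, 524 and 266 FPKM in controls 1, 2 and 3. They summed to 35.9 to 54.0 FPKM in NE libraries and 30.3 to 90.0 FPKM in brimonidine libraries. The sum hides an uneven contrast. Gabra6, of cerebellar neurons, measured 31.5 to 93.4 FPKM in control, 0 to 2.08 FPKM in NE and 0 to 8.81 FPKM in brimonidine libraries. Aqp4, of glia, measured 28.9 to 70.3, 23.8 to 36.9 and 17.3 to 36.2 FPKM. The labels name the cells interstitial cells of the cochlea, but neutrophil markers (7 of 7) summed to 30783 to 51189 FPKM in 16 libraries and 7378 FPKM in control 2, and skeletal muscle markers (6 of 6) to 177 to 487 FPKM in control, 347 to 847 FPKM in NE and 280 to 714 FPKM in brimonidine libraries (medians of 213, 509 and 463 FPKM). B and plasma cell markers (6 of 6) summed to 201 to 651, 455 to 1191 and 494 to 702 FPKM in the 3 groups (medians of 448, 808 and 579 FPKM). Hair cell markers (7 of 7) summed to 13.5 to 19.6 FPKM in these 16 libraries and 30.6 FPKM in control 2. In such bulk RNA, fewer cells of a type and less RNA per cell cannot be told apart. The part of these other cells in the group differences was not tested.

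After noise alone, the estimates of all 10 members lay below control, and 7 of them passed the test, with Tef falling furthest. The question is whether noise changed the cochlear transcriptome 2 days later. Differences are in log2(FPKM + 1), estimated ± standard error with limma across 15950 genes, and an adjusted p is over all of these. The members called lower at an adjusted p under 0.05 were Tef, Nr1d2, Ciart, Dbp, Per3, Nr1d1 and Per1, against 12.0% of all genes tested that were called lower. Their median difference over all 10 members was -0.60, and over all genes it was -0.04. No member reached a fold of 2 on this scale as well, while 5.49% of genes did so in this direction. Without adjustment 8 members, these and Hlf, had a p under 0.05 (22.3% of genes, lower). All 7 NE libraries lay below all 3 controls for Dbp, Tef, Hlf, Nr1d1, Nr1d2, Per3 and Ciart, and 15.0% of genes tested showed this. Because the NE libraries also served in the contrast that chose Dbp and Tef, and the study named Dbp for this contrast too, these counts are not independent evidence of direction. Without control 2 there were 4 members called, Dbp, Tef, Nr1d2 and Ciart, and the share of all genes called lower was 5.86%.

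Between the brimonidine and control groups, Per1 alone was called, and Dbp was the only member with a higher estimate in the brimonidine group. The study does not report this contrast, which shares its controls with the one above. The count of 1 stood against 12.3% of 15947 genes called lower, and none reached a fold of 2 (5.56%). At an unadjusted p under 0.05 there were 4 members, Tef, Hlf, Nr1d2 and Per1 (22.0%). All brimonidine libraries lay below all controls for Hlf and Per1 (14.3%). The other 9 members had adjusted p from 0.074 to 0.921, which does not show that they were at the control level. The median over the members was -0.31, beside -0.03 over all genes. Scaling libraries by the median ratio over genes moved the median difference of all genes between the NE and control groups from -0.04 to 0.06 and the calls from 1909 lower and 338 higher to 1644 and 728. Quantile normalization gave 1483 and 950. For the brimonidine and control groups the calls moved from 1965 lower and 553 higher to 1823 and 1051 and to 1576 and 1443. Under all scalings tried the 10 estimates for NE against control stayed negative.

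Set against the NE group, all 10 members had higher estimates in the brimonidine group, with Dbp highest, except that Per1 (0.02) turned to -0.018 with array weights and below 0 without 6 of the 14 libraries in turn. This contrast chose the genes, so its values are a description with no test. The median difference over the members was 0.34, and over all genes it was 0.01. No member had all brimonidine libraries above all NE libraries, which held for 0.102% of 15707 genes, and nothing is read from this count.

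**Figure D1:**
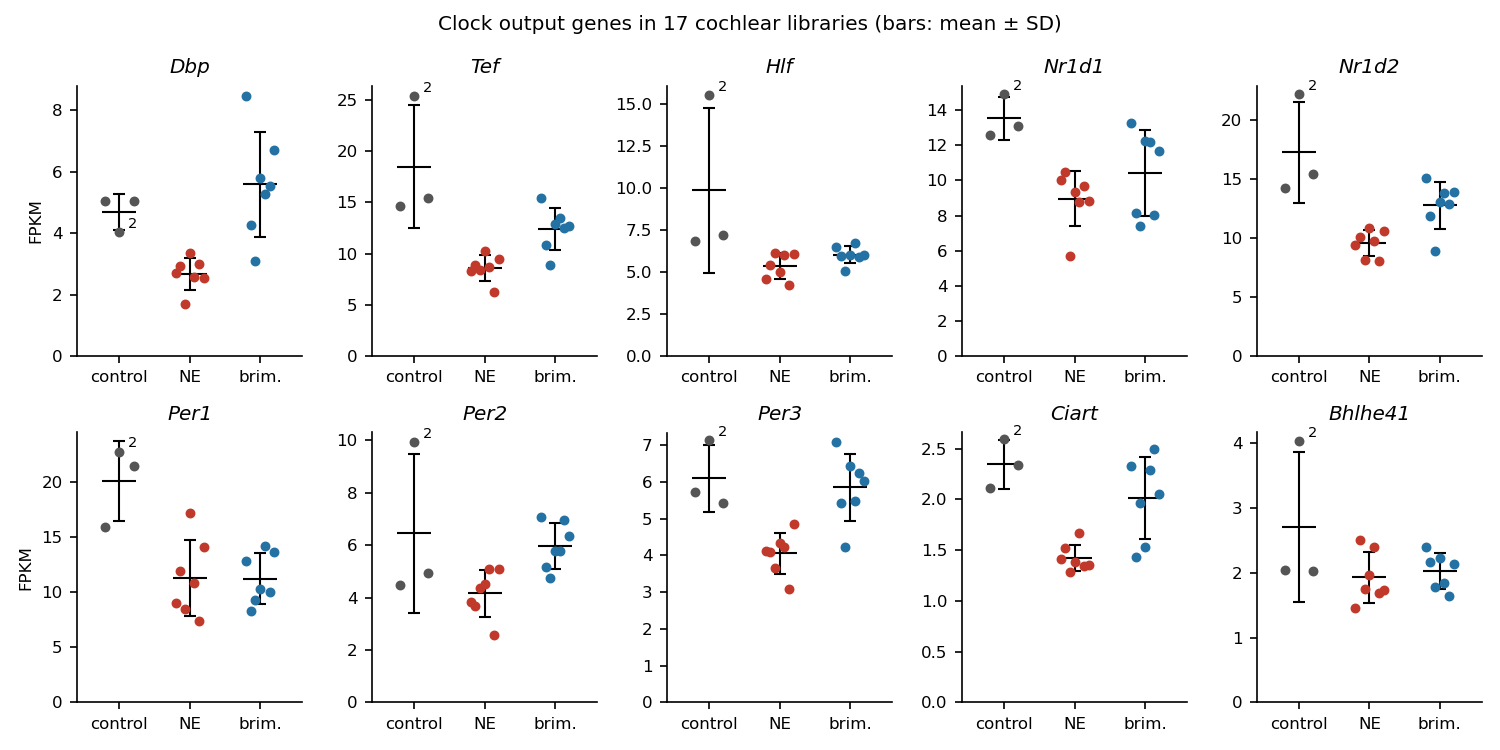
FPKM (linear axis from 0) of the 10 genes in each of 3 control, 7 NE and 7 brimonidine libraries, with group mean and SD as bars and control 2 marked "2". In 7 of the panels all NE points lie below all control points, and in the Per1 panel the NE and brimonidine means are 11.3 and 11.2 FPKM.

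Among the PAR bZIP factors, Dbp and Tef were lower after noise alone and Hlf fell short of the threshold. Dbp (ENSMUSG00000059824, chr7:45705088-45710203, + strand) measured 5.04, 4.03 and 5.05 FPKM in controls 1, 2 and 3. NE libraries ran from 1.68 to 3.34 FPKM with a median of 2.70, and brimonidine libraries from 3.08 to 8.46 FPKM with a median of 5.54. Every NE library was thus below every control, whereas 5 brimonidine libraries were above all controls and 1 was below them. Means were 4.70 ± 0.587 (SD, n = 3), 2.68 ± 0.523 (n = 7) and 5.59 ± 1.72 FPKM (n = 7). NE differed from control by -0.64 ± 0.14 (limma, adjusted p = 0.0119), with an exact two-sided permutation p of 0.0083, the smallest that 7 libraries against 3 allow. With quantile normalization the difference was -0.43 and the call was lost. Against control, the brimonidine estimate for Dbp was 0.17 ± 0.21 (adjusted p = 0.591). This small value moved to 0.08 without control 2 or without brimonidine 1, to 0.28 without brimonidine 3, and to 0.26 and 0.35 with the median ratio and quantile normalization. Relative to NE it was 0.81 ± 0.15, a ratio of means of 2.09, and 6 of the 7 brimonidine libraries exceeded all NE libraries, brimonidine 3 being the exception. Dbp shares 539 exonic bases with Sphk2 on the opposite strand.

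Tef (ENSMUSG00000022389, chr15:81802421-81826861, + strand) was the most abundant of the family. It measured 14.6, 25.4 and 15.4 FPKM in the controls, 6.22 to 10.3 FPKM (median 8.65) among NE libraries and 8.87 to 15.4 FPKM (median 12.7) in the brimonidine group. No NE library reached the lowest control, while 1 brimonidine library did. NE differed from control by -0.99 ± 0.17 (limma, adjusted p = 0.00325, and exact permutation p = 0.0083). Without control 2 the difference was -0.75 and still passed. The brimonidine group stood at -0.52 ± 0.18 against control (adjusted p = 0.0743), at -0.28 in the same comparison without control 2, and at 0.48 ± 0.11 against NE, a ratio of means of 1.44. As for Dbp, 6 of 7 brimonidine libraries were above all NE libraries and brimonidine 3 was not.

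Hlf (ENSMUSG00000003949, chr11:90336536-90390895, − strand) had the widest relative spread among the controls, with an SD of 49.7% of the mean. Controls measured 6.85, 15.5 and 7.19 FPKM. NE libraries lay between 4.23 and 6.10 FPKM (median 5.42) and brimonidine libraries between 5.08 and 6.71 FPKM (median 6.02), both wholly below the controls. The NE difference of -0.69 ± 0.21 just missed the threshold (limma, adjusted p = 0.0503). It was -0.35 without control 2. For brimonidine against control it was -0.54 ± 0.20 (adjusted p = 0.0801), and -0.19 without control 2. Between the exposed groups the estimate was 0.15 ± 0.08, and 2 brimonidine libraries were above all NE libraries.

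**Figure D2:**
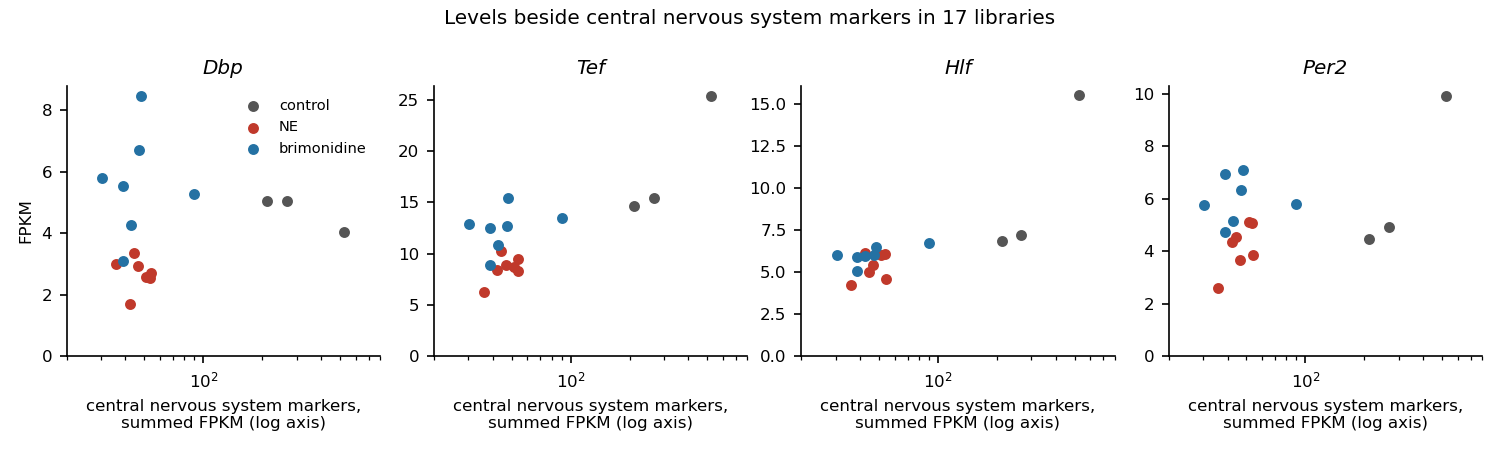
FPKM of Dbp, Tef, Hlf and Per2 (linear axes from 0) against the summed FPKM of central nervous system markers (log axis), 1 point per library. Control 2, at 524 FPKM of markers, is highest for Tef, Hlf and Per2 (25.4, 15.5 and 9.93 FPKM) and lowest of the controls for Dbp (4.03 FPKM).

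The REV-ERB receptors were both lower in the NE group. Nr1d1 (ENSMUSG00000020889, chr11:98767932-98775333, − strand, with 263 exonic bases shared with Thra on the opposite strand) measured 12.6, 14.9 and 13.1 FPKM in the controls. NE libraries held 5.68 to 10.5 FPKM (median 9.33), all below the controls, with NE 3 far below the other 6. Brimonidine libraries fell into a low set of 7.42, 8.02 and 8.13 FPKM and a high set of 11.7 to 13.3 FPKM with nothing between. Their 3 low libraries (brimonidine 2, 3 and 6) overlapped the NE range, and the highest (brimonidine 1) overlapped the controls. The NE difference was -0.56 ± 0.15 (limma, adjusted p = 0.0315), and it lost the call without 5 of the 10 libraries in turn (control 2, at -0.49, control 3, NE 4, NE 5 and NE 7), with the median ratio and with no filter on low values. For brimonidine the estimate was -0.37 ± 0.18 against control (adjusted p = 0.159) and 0.19 ± 0.14 against NE.

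Nr1d2 (ENSMUSG00000021775, chr14:18204054-18239127, − strand) had the smallest adjusted p in the NE comparison after Tef. Controls measured 14.2, 22.2 and 15.4 FPKM, NE libraries 8.03 to 10.8 FPKM (median 9.72) and brimonidine libraries 8.90 to 15.1 FPKM (median 13.1). The NE and control libraries did not overlap, and 6 of the 7 brimonidine libraries lay above all NE libraries. NE differed from control by -0.77 ± 0.14 (limma, adjusted p = 0.00392, and exact permutation p = 0.0083), and by -0.59 without control 2. The brimonidine group was at -0.39 ± 0.16 against control (adjusted p = 0.110), at -0.21 in the same comparison without control 2, and at 0.38 ± 0.10 against NE.

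Of the Period genes, Per1 was called lower than control in both exposed groups and Per2 in neither. Per1 (ENSMUSG00000020893, chr11:69095217-69109960, + strand), the Period gene that also responds to cAMP and glucocorticoid signals, measured 15.9, 22.8 and 21.5 FPKM in the controls. It ran from 7.38 to 17.2 FPKM (median 10.9) among NE libraries and from 8.30 to 14.2 FPKM (median 10.3) in the brimonidine group. Only NE 4, at 17.2 FPKM, reached into the control range. The differences from control were -0.81 ± 0.22 for NE (limma, adjusted p = 0.0371) and -0.79 ± 0.17 for brimonidine (adjusted p = 0.0110). Against NE the brimonidine estimate was 0.02 ± 0.16 with a ratio of means of 0.996. The NE call was lost without 7 of the 10 libraries in turn (control 2, at -0.71, control 3, and NE 1, 2, 3, 5 and 6), with equal totals, with the median ratio and with no filter on low values. The brimonidine call stayed without each of the 10 (-0.69 without control 2).

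Per2 and Per3, repressors like Per1, had estimates near 0 in the brimonidine group and negative ones in the NE group, where Per3 alone of the pair passed. Per3 (ENSMUSG00000028957, chr4:151003652-151044665, − strand) measured 5.72, 7.14 and 5.41 FPKM in the controls, 3.10 to 4.86 FPKM (median 4.13) among NE libraries and 4.24 to 7.08 FPKM (median 6.01) in the brimonidine group. NE and control did not overlap, and 1 brimonidine library (brimonidine 3) was below all controls. The NE difference was -0.49 ± 0.12 (limma, adjusted p = 0.0191), and the call was lost without control 2 (-0.39) and with equal totals. The brimonidine estimates were -0.05 ± 0.13 against control and 0.43 ± 0.09 against NE. Per2 (ENSMUSG00000055866, chr1:91415982-91459324, − strand) measured 4.48, 9.93 and 4.94 FPKM in the controls, 2.59 to 5.10 FPKM (median 4.36) among NE libraries and 4.74 to 7.08 FPKM (median 5.79) in the brimonidine group. Here 3 NE libraries overlapped the controls, and 6 of 7 brimonidine libraries lay above all NE libraries. For NE against control the estimate was -0.48 ± 0.22 (adjusted p = 0.162), and -0.16 without control 2. For brimonidine against control it was -0.03 ± 0.20 (adjusted p = 0.921), which turned to 0.28 without control 2. Its estimate against NE was 0.44 ± 0.11. The sign of the small brimonidine estimates against control also turned under some scalings, for Per2 and Per3 with the median ratio and for these and Ciart with quantile normalization.

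Ciart and Bhlhe41, the remaining repressors, had the lowest levels. Ciart (ENSMUSG00000038550, chr3:95878503-95882251, − strand), the E-box-rich gene shown above, rested on 48 to 97 fragments per library. It measured 2.11, 2.59 and 2.34 FPKM in the controls, 1.29 to 1.67 FPKM (median 1.38) among NE libraries and 1.43 to 2.50 FPKM (median 2.05) in the brimonidine group. No NE library reached a control, and 5 of 7 brimonidine libraries were above all NE libraries. NE differed by -0.46 ± 0.09 (limma, adjusted p = 0.00686). The call held without control 2 (-0.41) and was lost with quantile normalization (-0.23). The brimonidine estimates were -0.16 ± 0.13 against control (adjusted p = 0.387) and 0.30 ± 0.08 against NE. Bhlhe41 (ENSMUSG00000030256, chr6:145858243-145865558, − strand), which encodes DEC2, measured 2.04, 4.04 and 2.04 FPKM in the controls. It was 1.46 to 2.51 FPKM (median 1.75) among NE libraries and 1.64 to 2.40 FPKM (median 2.14) in the brimonidine group, and these ranges overlapped the controls and each other. Its differences from control were -0.31 ± 0.17 (adjusted p = 0.243) and -0.25 ± 0.16 (adjusted p = 0.274), and without control 2 they were -0.06 and -0.01. Between the exposed groups it was 0.05 ± 0.09.

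**Figure D3:**
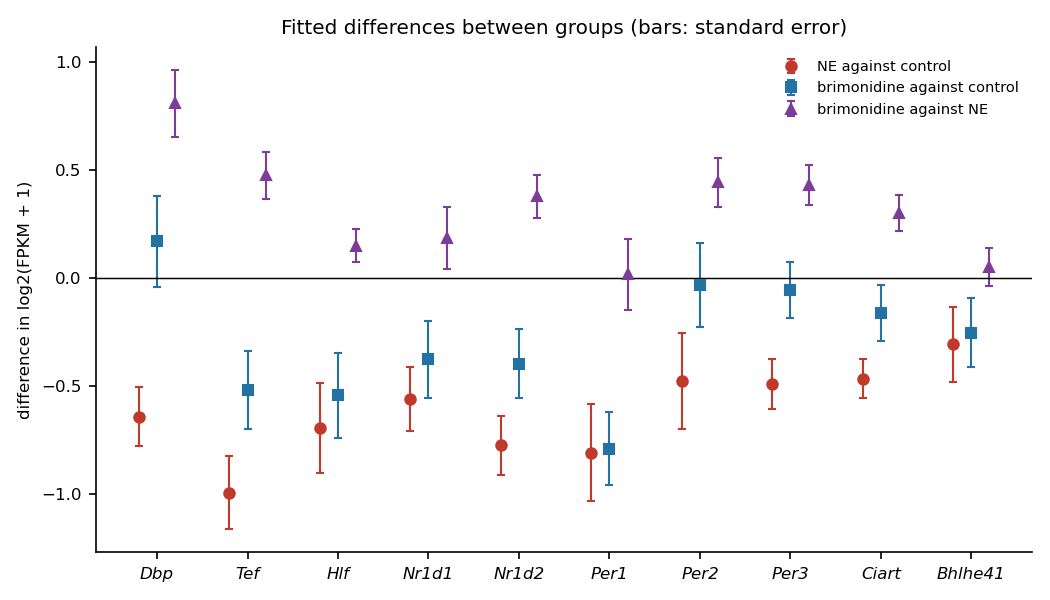
Difference in log2(FPKM + 1) for the 10 genes in 3 contrasts, estimated with limma, with the standard error as bars. NE against control is below 0 for all 10 genes (-0.99 to -0.31), brimonidine against control runs from -0.79 (Per1) to 0.17 (Dbp), and brimonidine against NE, which chose the genes, from 0.02 (Per1) to 0.81 (Dbp).

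FPKM is scaled by exon length, so levels can be ordered across genes. In the control group the order was Per1, Tef, Nr1d2, Nr1d1, Hlf, Per2, Per3, Dbp, Bhlhe41 and Ciart, from 20.1 ± 3.63 to 2.35 ± 0.241 FPKM (SD, n = 3). Neighbours in this order differed by less than the larger SD of the pair, except Per3 and Dbp (6.09 ± 0.920 and 4.70 ± 0.587 FPKM) and Dbp and Bhlhe41 (4.70 and 2.70 FPKM). In the brimonidine group Per1, at 11.2 ± 2.31 FPKM, came after Nr1d2 (12.8 ± 1.99) and Tef (12.4 ± 2.06), and Dbp at 5.59 ± 1.72 was within 1 SD of Hlf, Per2 and Per3.

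Within the exposed groups, Dbp varied together with the REV-ERB genes. Dbp and Tef were chosen by a test between these groups, in which spread within groups also enters. The co-variation is thus not fully independent of the choice. Over the 14 exposed libraries, each centred on its group mean, log2(FPKM + 1) of Dbp correlated with Nr1d1 at Pearson r = 0.82 (permutation within groups, p adjusted over the 9 members compared = 0.00603; Spearman rho = 0.71, adjusted p = 0.0859). For Nr1d2, r was 0.81 (adjusted permutation p = 0.00652; rho = 0.60, adjusted p = 0.147). Of 15706 genes compared, 4 correlated more strongly with Dbp than Nr1d1 did, and 6 more than Nr1d2. Per3 and Tef followed at 0.66 and 0.64, each with an adjusted permutation p of 0.0533 (rho 0.46 and 0.52). Per1 (0.50), Bhlhe41 (0.36), Ciart (0.34), Per2 (0.31) and Hlf (0.08) had adjusted permutation p of 0.0935 or more, with rho from -0.20 to 0.37. No rank correlation passed after adjustment. Leaving out brimonidine 1 and 7, the libraries farthest from the Dbp median before centring, gave r = 0.78 for Nr1d1 and 0.76 for Nr1d2. This check kept brimonidine 3, the lowest of its group for Dbp and farther from the group mean than brimonidine 7. Without brimonidine 3 the call for Nr1d2 was lost (r = 0.65), and r for Per3 and Tef fell to 0.42 and 0.41.

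Within each group of 7 the picture was less even. Nr1d1 went with Dbp in both, at r = 0.89 among NE libraries and 0.80 in the brimonidine group. Tef, Nr1d2, Per3 and Per2 had r of 0.94, 0.93, 0.93 and 0.89 with Dbp in the brimonidine group, beside 0.05, 0.50, 0.10 and -0.30 in the NE group. Hlf stood at 0.73 in the brimonidine group and -0.60 in the NE group. The difference between the groups was not tested. In the NE group, NE 3 was lowest for Dbp, Nr1d1 and Ciart, whereas NE 6 was lowest for Tef, Hlf, Nr1d2, Per1, Per2 and Per3. In the brimonidine group, brimonidine 1 was highest for 7 members and brimonidine 3 lowest for 7. Without NE 6, the number of members correlated with Dbp at an adjusted p under 0.05 went from 2 to 5, and without brimonidine 3 it was 1.

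**Figure D4:**
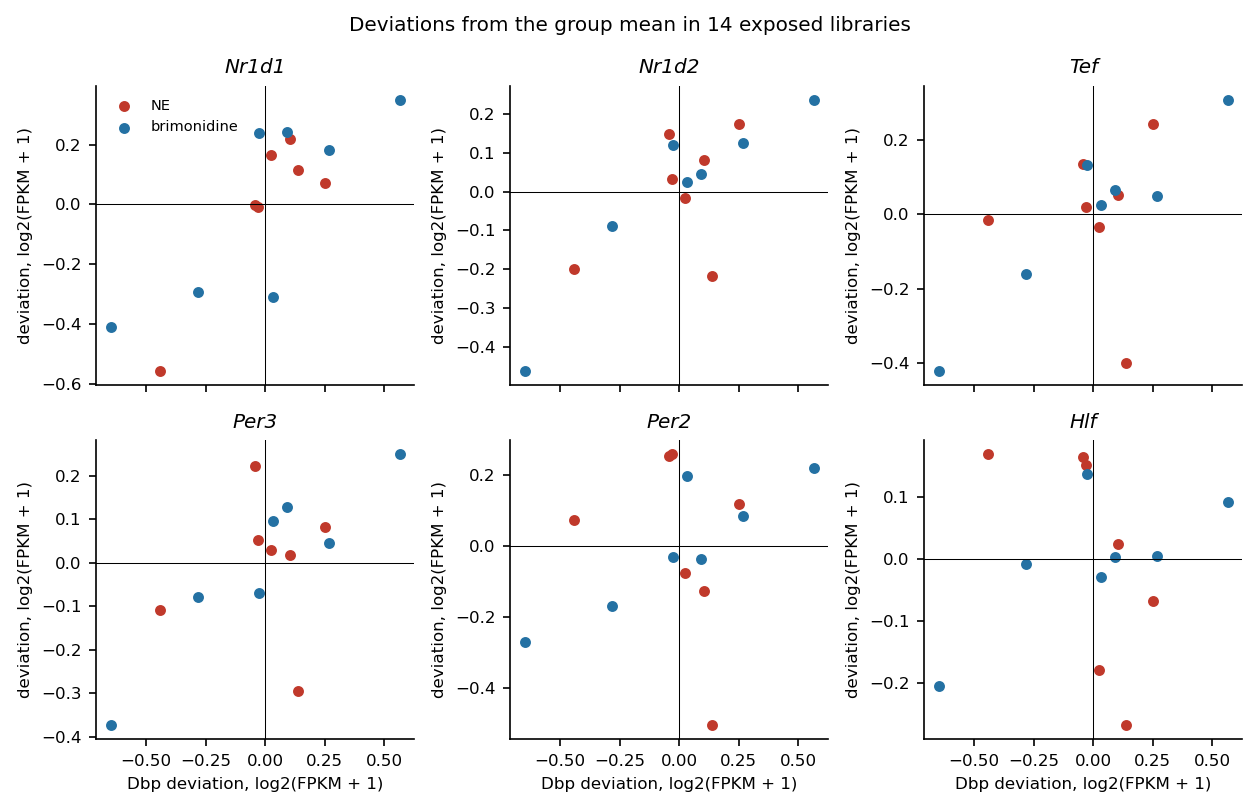
Deviation of log2(FPKM + 1) from the group mean for 6 members (vertical) against that of Dbp (horizontal) in 7 NE and 7 brimonidine libraries. Nr1d1 and Nr1d2 rise with Dbp (r = 0.82 and 0.81), and NE 6 is the lowest NE library for Tef, Per3 and Per2.

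Across the 45 pairs of members, 44 had a positive r within the exposed groups, with a median of 0.46. The highest were Tef with Nr1d2 (0.92), Nr1d2 with Per3 (0.89) and Tef with Per3 (0.89), and the lowest was Ciart with Bhlhe41 (-0.02). These pairs share libraries and depth and are given as a description. Nr1d2 and Tef followed the mean of the other 9 members most closely, at r = 0.93 and 0.91, and Ciart least, at 0.33. Such likeness was not particular to the members. Of 15698 genes ranked, 1 non-member followed that mean more closely than Nr1d2 and 1 more closely than Tef, but 108 did so for Per3, 1510 for Dbp, 3340 for Nr1d1 and 5553 for Ciart.

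The genes outside the 10 whose pattern within the exposed groups was most like the members' mean were Fbxo32, Tenm3, Flt1, Fat1, Hs2st1, Cul7, Slit3, Col12a1, Abi3bp and Gpatch2. Their r ran from 0.90 to 0.93 over the 14 libraries, among 14668 genes with a median r of 0.14. Their differences between brimonidine and NE ran from -0.10 to 0.08 in log2(FPKM + 1), beside 0.02 to 0.81 for the members. Of the other genes listed for the clock, Cry2 (0.82) ranked high, as did Klf9 (0.83) and the PAR bZIP target Pdxk (0.88). These were the highest of their lists, whose other genes spread widely. They ran from Csnk1e (-0.32) to Btrc (0.45) beside Cry2 and from Cebpd (-0.34) to Sgk1 (0.76) beside Klf9. The other targets tested beside Pdxk were Alas1 (-0.24) and Por (0.34). Among the core activators and genes of the opposite phase, r was 0.68 for Rora, 0.65 for Arntl2, 0.58 for Clock and 0.25 for Cry1, while it was -0.06 for Npas2, -0.10 for Arntl and -0.35 for Nfil3, the D-box repressor.

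Of 10 marker lists of other cell types, 3 moved with or against the members' mean within the exposed groups by Pearson r, and 2 of them by rank as well. This comparison was added after seeing the data. Neutrophil markers went against it (r = -0.78, adjusted permutation p = 0.0174; rho = -0.71, adjusted p = 0.0416) and skeletal muscle markers with it (r = 0.76, adjusted permutation p = 0.0174; rho = 0.80, adjusted p = 0.010). The sign held in each group, at -0.81 and -0.78 for neutrophils and 0.78 and 0.74 for muscle in NE and brimonidine. Without the 2 farthest libraries r was -0.86 and 0.76. Hair cell markers had r = 0.69 (adjusted permutation p = 0.0260; rho = 0.56, adjusted p = 0.124), which fell to 0.45 without NE 6 and brimonidine 1. Central nervous system markers had r = 0.40 (adjusted permutation p = 0.376; rho = 0.54, adjusted p = 0.124). Erythroid markers had r = -0.58 (adjusted permutation p = 0.0817; rho = -0.53, adjusted p = 0.124), at -0.32 in NE and -0.85 in brimonidine. For Dbp alone no list had an adjusted p under 0.05, the lowest being 0.459. Neutrophil markers summed highest in NE 6 (51189 FPKM), brimonidine 2 (47117 FPKM) and brimonidine 3 (39380 FPKM), libraries in which 6, 2 and 7 members respectively had their group's lowest value. The part of cell makeup in the members' spread was not tested.

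**Figure D5:**
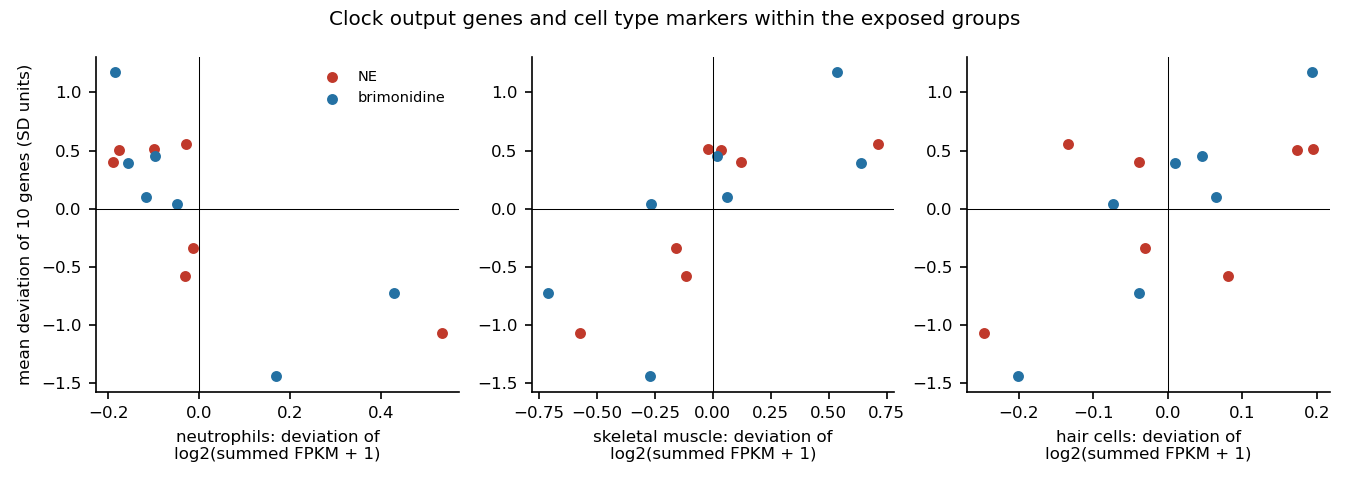
Mean deviation of the 10 members from their group means, in SD units, against the deviation of log2(summed FPKM + 1) of neutrophil, skeletal muscle and hair cell markers, in 14 exposed libraries. The members' mean falls with neutrophil markers (r = -0.78) and rises with muscle markers (r = 0.76).

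The remaining genes of the clock were taken by role, from lists made with earlier results of these data known. Of 8 core activators and genes of the opposite phase, 7 were tested, Rorb having too low a level. Rora, an activator of Bmal1, was lower than control in both exposed groups, at -1.43 in NE (limma, adjusted p = 0.00181) and -1.31 in brimonidine (adjusted p = 0.00378). Controls also held more RNA of the cerebellar and other central markers, and the part of this in the Rora difference was not tested. Arntl, which encodes BMAL1, Clock and Npas2 were called lower than control in the brimonidine group, at -0.77, -0.57 and -0.65, and had -0.46, -0.51 and -0.20 in NE without a call. Arntl measured 2.09 ± 0.235 FPKM in NE and 1.51 ± 0.323 FPKM in brimonidine (SD, n = 7 each), and Npas2 1.52 ± 0.344 and 0.839 ± 0.168 FPKM. Between these groups the estimates were -0.31 ± 0.08 and -0.45 ± 0.10 (limma, adjusted p = 0.518 and 0.262). Of the 7 genes, 5 had lower and 2 higher estimates in this contrast, Cry1 (0.16) and Rora (0.12) being the higher ones, with a median of -0.08 and no call. Cry1 and Nfil3 were called in no contrast. Without control 2 the number called lower in this list stayed at 1 for NE and went from 4 to 1 for brimonidine, while the share of all genes called lower went from 12.0% to 5.86% and from 12.3% to 7.45%.

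Among 6 other repressors, kinases and ligases, 5 were tested (Fbxl21 was too low), and Cry2, the partner of the PER proteins, was the gene called in each comparison with control. It was at -0.79 ± 0.14 in NE (limma, adjusted p = 0.00377) and -0.63 ± 0.14 in brimonidine (adjusted p = 0.0116). Of all genes, 12.0% and 12.3% were called lower in these comparisons. Bhlhe40, Csnk1d, Csnk1e and Btrc had negative estimates in both comparisons and no call, and with the median ratio 1 estimate in each comparison was positive. Of 5 further genes that cycle in many organs, Usp2 was lower in both groups, at -0.94 and -0.84, and Tsc22d3 at -0.57 and -0.49. Nampt was higher in both, at 0.26 and 0.27, but lost both calls without control 2 and the NE call with equal totals and quantile normalization. Tspan4 was called lower in NE (-0.34) and stood at -0.03 in brimonidine, and between these groups it was at 0.31 (limma, adjusted p = 0.208). Wee1 was called in neither. In these 5 genes, 3 were called lower in NE and 2 in brimonidine (12.0% and 12.3% of all genes), and without control 2 there were 1 and 2 (5.86% and 7.45%). With equal totals the lower calls were 1 and 2 (8.51% and 8.81%) and with the median ratio 1 and 1 (10.3% and 11.4%). Quantile normalization kept 3 and 2 (9.26% and 9.85%).

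Of 5 known targets of the PAR bZIP factors, 3 were tested and none was called in any contrast by limma. Pdxk (lower) and Alas1 (higher) had an unadjusted p under 0.05 against control in both groups. Many genes passed this threshold, 3557 lower and 1695 higher of 15950 in NE and 3505 lower and 2167 higher of 15947 in brimonidine. Pdxk, which makes the active form of vitamin B6, was at -0.61 in NE (limma, adjusted p = 0.0812) and Alas1, of haem synthesis, at 0.62 (adjusted p = 0.133), while Por was at 0.07. Glucocorticoid-responsive genes, of which Per1 is also one, were mixed. In both exposed groups Tsc22d3, Dusp1 and Ddit4 were called lower than control and Fkbp5 and Zbtb16 higher, 3 and 2 of 8 tested. Of all genes, 12.0% were called lower and 2.12% higher in NE, and 12.3% and 3.47% in brimonidine. Dusp1 was at -0.81 in NE and -1.07 in brimonidine, and Fkbp5 at 1.06 and 1.05. With the median ratio the lower calls in this list were 0 for NE and 1 for brimonidine (10.3% and 11.4% of all genes) and the higher calls stayed at 2 in each (4.56% and 6.59%). Without control 2 the lower calls were 1 and 3 (5.86% and 7.45%) and the higher ones 1 and 2 (0.875% and 2.02%). None of the 27 genes tested from these 5 lists was called between the brimonidine and NE groups by limma at an adjusted p under 0.05, which 0.00637% of 15707 genes passed. At an unadjusted p under 0.05, 4 were higher (3.30% of genes) and 3 lower (2.46%).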

How the data were processed

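The authors extracted total RNA with TRIzol, prepared stranded mRNA libraries with a TruSeq kit and deposited FPKM values of 35285 genes in 17 libraries. Per the labels, the submitters' processing notes name Trimmomatic, HISAT2, Cufflinks and HTSeq and the build mm10, with no versions or roles. The study itself tested differences with DESeq2 on counts, which were not used here. FPKM values are not counts, so the test was limma 3.58.1 (R 4.3.3; lmFit, then eBayes with a trend) on log2(FPKM + 1) for genes with at least 1 FPKM in at least 3 of the libraries compared, 1 model per pair of groups, with Benjamini-Hochberg adjustment over all genes tested. This scale understates the change of low genes.

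Multiplied by exon length in GENCODE M21, 94.1% of values were whole fragments (tolerance 0.05), and 32484 of 34951 genes were whole in every library. This gave the depths and, added after seeing the data, a voom fit on the recovered fragments, in which Tef was not among the genes whole at the annotated length (its fragments use a length solved from its values). Positions are those of GENCODE M21 on GRCm38, with which 93.9% of 35207 genes had the same position, and promoter sequences are RefSeq's. The kit marks strand, but whether counting used it is not given in the sources used here. Genes were followed by identifier, because 25 symbols named more than 1 gene each.

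Groups came from the sample labels, with 1 mouse per library, and p-values measure the spread between mice. The members and all gene lists were chosen with earlier results of these data known. Some genes of the lists are not reported here and are in no count of a list. Besides the members, the genes named were those of the lists and the 10 most like the members' mean within the exposed groups. Single genes were also compared by exact two-sided permutation of group means (120 arrangements), and correlations by 100000 shuffles within groups, with Python 3.11.15, numpy 2.4.6, scipy 1.17.1 and pandas 2.3.3. The scripts were tested on simulated data. Alternatives were a pseudocount of 0.1, no filter, 3 other scalings (equal totals, median ratio, quantile), all libraries in 1 model, array weights, a block for the replicate number, and leaving out 1 library at a time.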

Additional observations from a re-analysis of the deposited data

Results flagged for a closer look

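In the NE group, Nr1d1 in NE 3 was far below the other 6 libraries, at 5.683 FPKM. The gap to its nearest neighbour was large for the range of the group by Dixon's criterion. Over the 10 members in both exposed groups, 20 groups of 7 libraries were looked at and 1 library was picked out in this way, and chance alone does so in about 1 in 20 groups. Dbp was also lowest in NE 3, at 1.68 FPKM. Without NE 3 the correlation of Nr1d1 with Dbp within the exposed groups was 0.77.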

How the results depend on the processing

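Against 7 members called lower in NE than in control, the alternatives without a replicate block gave 5 to 8, and leaving out 1 library gave 4 (without control 2) to 8. Of all genes 12.0% were called lower, 23.1% with array weights and 19.0% with all libraries in 1 model (8 members each), 11.8% with a pseudocount of 0.1 (8), 6.43% with no filter, 8.51% with equal totals and 9.26% with quantile normalization (5 each), and 5.86% to 16.4% with 1 library left out. Adjusted p over these alternatives, the block included, ran from 0.00084 to 0.282 for Dbp and from 5.5e-05 to 0.212 for Tef. With a fold of 2 as well, a pseudocount of 0.1 and equal totals each gave 1 member (7.09% and 5.57% of all genes), and left-out libraries 0 to 1 (2.20% to 5.74%). By exact permutation 8 members had p under 0.05 and 22.2% of all genes were lower at this threshold (5 to 8 members and 12.8% to 23.0% of genes with 1 library left out). For brimonidine against control, 1 call became 4 with all libraries in 1 model, 3 with array weights and 1 to 3 with a library left out. Of all genes, 12.3% were called lower, 18.1% in 1 model, 24.7% with array weights and 7.45% to 18.7% with a library left out. In the same comparison 4 permutation calls (21.5% of all genes, lower) became 2 with equal totals (16.5%) and 1 to 5 with a library left out (12.7% to 22.0%). The replicate block called 0 members in both comparisons, and over all genes 0 for NE and 234 lower (1.47%) and 2 higher for brimonidine. In this fit only the replicate numbers that the controls also carry bear on a difference from control, so few libraries inform it. Correlations of same-numbered deviations over all genes ran from -0.22 to 0.08. They cannot show whether same-numbered samples share a day or batch, which the labels do not give. The number of members correlated with Dbp was 2, 5 with equal totals, and 1 to 5 with a library left out. The sign of small values turned. For brimonidine against control, Per2 was 0.062 with the median ratio, 0.094 with quantile normalization and 0.26 with array weights (adjusted p = 0.0392, a call), and from -0.22 to 0.28 with a library left out. Per3 was 0.037, 0.084 and 0.13, and from -0.12 to 0.048. Ciart was 0.072 with quantile normalization and Bhlhe41 0.0032 with array weights. For Hlf with Dbp, r was -0.053 with the median ratio, -0.15 with quantile normalization and -0.29 to 0.28 with a library left out. In NE against control, voom on the recovered fragments called 7 of the 9 members it held and 14.3% of all genes lower. The cause of these changes was not tested. With 3 controls, 1 of them apart, small differences from control could not be resolved.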
